A study of Mus musculus with 17 samples.

Results

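Proteasome genes were followed here in bulk RNA sequencing of 2 skeletal cell types from mice of 3 genotypes. Members were all protein-coding genes whose mouse symbol begins with Psma, Psmb, Psmc, Psmd, Psme, Psmf or Psmg and a number, and 50 of the 55335 counted genes met this rule. Of these, 48 belong to the proteasome or its assembly: 7 subunits of the alpha ring and 7 of the constitutive beta ring of the 20S core, 6 ATPases and 11 other subunits of the 19S cap, 3 catalytic subunits of the immunoproteasome, 2 subunits of the PA28 cap, 3 other activators or inhibitors, 7 assembly chaperones and 2 tissue-specific core subunits. The first 4 of these groups make up the 31 constitutive subunits. Psmc3ip and Psme2b also matched the symbol rule but are not known subunits, and they were kept apart.

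SSCs (Skeletal Stromal/Stem Cells, sorted as Sca-1+ PDGFRα+) and their more differentiated progeny, OPCs (OsteoProgenitor Cells, Sca-1-), came from the bone fraction of WT (Cxcr4+/+), +/1013 (Cxcr4+/1013) and 1013/1013 (Cxcr41013/1013) mice. The 1013 allele is a knock-in in every cell of a WHIM syndrome mutation, which impairs the desensitization of the chemokine receptor CXCR4. According to the methods, mice were female littermates of 8 to 12 weeks unless stated otherwise, and each library was made from 3000 sorted cells pooled from 3 mice. Each genotype and cell type had 3 libraries, except 1013/1013 SSCs with 2, so p-values measure the spread between these libraries only.

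The proteasome degrades proteins that carry ubiquitin chains. Its 20S core is a stack of alpha and beta rings, in which Psmb5, Psmb6 and Psmb7 carry the chymotrypsin-like, caspase-like and trypsin-like sites, and its 19S cap recognizes, unfolds and feeds in the substrate. Interferon induces Psmb8, Psmb9 and Psmb10, which replace these catalytic subunits in the immunoproteasome, and the PA28 cap (Psme1 and Psme2), and both favour peptides for antigen presentation. When proteasome activity is short, the transcription factor NRF1 (Nfe2l1) raises the constitutive subunit genes together through antioxidant response elements.

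Because the constitutive subunit genes lay on one side of WT together in SSCs, the sequence before the start of 3 of them is shown, as RefSeq places the start on GRCm38.p6 (mm10). They are the caspase-like and the chymotrypsin-like subunit and the alpha ring gene with the largest difference in +/1013 SSCs. Psmb6 (ENSMUSG00000018286.6) lies on the plus strand of chr11:70525367-70527858, Psmb5 (ENSMUSG00000022193.7) on the minus strand of chr14:54614119-54618022 and Psma6 (ENSMUSG00000021024.14) on the plus strand of chr12:55384222-55418454. The windows are the 250 bases before the start, read 5′ to 3′ on the strand of the gene, at chr11:70525107-70525356, chr14:54617996-54618245 and chr12:55383972-55384221. Capitals mark matches on either strand to TGANNNNGC, the core of the antioxidant response element, or to CCAAT, the CCAAT box. Psma6 has another annotated start, whose window is not shown.
Psmb6: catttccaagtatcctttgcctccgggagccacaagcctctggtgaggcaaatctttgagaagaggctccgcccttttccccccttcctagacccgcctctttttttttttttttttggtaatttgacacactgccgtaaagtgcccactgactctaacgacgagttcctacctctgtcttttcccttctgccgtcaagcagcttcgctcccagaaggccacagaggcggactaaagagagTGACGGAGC
Psmb5: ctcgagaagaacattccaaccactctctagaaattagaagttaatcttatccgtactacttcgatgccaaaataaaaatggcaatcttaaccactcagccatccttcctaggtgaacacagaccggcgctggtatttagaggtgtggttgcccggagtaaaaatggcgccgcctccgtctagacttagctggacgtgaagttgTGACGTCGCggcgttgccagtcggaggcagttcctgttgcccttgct
Psma6: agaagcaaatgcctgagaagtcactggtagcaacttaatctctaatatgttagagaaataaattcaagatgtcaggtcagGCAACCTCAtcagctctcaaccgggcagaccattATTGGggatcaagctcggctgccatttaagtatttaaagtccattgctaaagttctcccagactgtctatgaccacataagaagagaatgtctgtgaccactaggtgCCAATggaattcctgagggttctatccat
The antioxidant core lay in 10 of 27 windows of 25 constitutive subunit genes (37%) and in 35.2% of all 32851 RefSeq windows of the same length. CCAAT also lay in 10 of the 27 windows (37%), against 33.8% of all windows. Neither share was far from that of all promoters. The core of the interferon-stimulated response element, GAAA and GAAA parted by any 2 bases, lay in 2 of the 27 (7.41%), those of Psmb3 and Psmd4, against 2.98% of all. TTCNNNGAA, the core of the gamma-activated site, lay in none of them against 7.02% of all windows, while the window of Psmb8 had 1 match. The motifs were searched on both strands and may overlap one another, and 42 of the 50 symbols had a window.

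Depth was high for both cell types, with 64099849 to 92683497 counts on genes in an OPC library and 44217695 to 50509592 in an SSC library. On the CPM scale, on which the counts of a library are scaled to a common total, 3 counts were worth 0.0324 to 0.0468 in OPCs and 0.0594 to 0.0678 in SSCs, and smaller values were read as not detected. Such a limit allows for counting error alone, as reads amplified by PCR carry no tag of the molecule they came from. Marker values in this paragraph were normalized over all 17 libraries. The 9 osteogenic marker genes summed to 176320 to 553125 CPM in OPCs and to 9323 to 23335 CPM in SSCs, and the 3 sort marker genes (Ly6a, Pdgfra, Itgav) to 127 to 205 CPM and 804 to 1942 CPM, on the side that the labels give. Within SSCs these sums also differed by genotype without overlap, with osteogenic sums of 17973 to 23335 CPM in WT and 9323 to 14935 CPM in mutant libraries and sort marker sums of 804 to 1049 CPM and 1205 to 1942 CPM. Not every gene followed its sum. Among the sort markers, Itgav was lower in mutant SSCs (49.5 to 59.7 CPM in WT and 17.8 to 35.8 CPM in mutant libraries). Pdgfra overlapped, at 340 to 414 CPM in WT and 341 to 522 CPM in mutant libraries. The 15 leukocyte markers had a high sum in OPC WT replicate 3 (10795 CPM), OPC 1013/1013 replicate 2 (10291 CPM) and SSC WT replicate 3 (3712 CPM), although the gate removed CD45+ cells, against 47.1 to 940 CPM in the other 14 libraries. SSC WT libraries also stood apart from SSC mutant libraries, with 3.68% to 4.15% against 1.504% to 2.69% of reads outside annotated exons and 21449 to 22599 against 15748 to 19227 genes with a count. Reads without a unique place parted them too, at 5.10% to 5.65% in WT and 5.76% to 8.56% in mutant SSC libraries. Reads that fit several genes were 3.68% to 3.93% and 3.28% to 3.58%, and 1.87% to 2.62% in OPC libraries. In bulk samples, fewer cells of a type and less RNA per cell cannot be told apart.

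Constitutive subunits were well covered, with 1218 to 17934 counts each in every library. In all, 47 of the 50 members passed the filter on low counts, in each cell type and in the joint fit. Psmb11, the thymus-specific core subunit, had counts in 2 of 17 libraries (at most 21), Psmd10, an assembly chaperone, in 5 (at most 3) and Psme2b in 12 (at most 3). Psma8, the germ cell form of an alpha subunit, was low and uneven, at 2.05 to 14.7 CPM in OPCs and 0 to 2.64 CPM in SSCs.

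Levels per length differed widely between subunits and kept the same extremes across genotypes. On the scale of CPM per kilobase of annotated exon, normalized over all 17 libraries, Psma6 was the highest constitutive subunit in all 6 groups (means of 61.9 to 133). Psma3 was the lowest in OPCs of every genotype (6.69 to 7.39) and Psmb7 the lowest in SSCs (6.17 to 11.1). The highest stood 15.5 to 17.1 times above the lowest in OPCs and 10.02 to 13.2 times in SSCs. The median subunit had 38.2, 38.0 and 37.4 CPM per kilobase in WT, +/1013 and 1013/1013 OPCs, and 27.3, 43.6 and 45.0 in SSCs. The constitutive catalytic subunits Psmb5, Psmb6 and Psmb7 summed to 130 to 153 CPM per kilobase in OPCs, 91.5 in WT SSCs, 153 in +/1013 SSCs and 164 in 1013/1013 SSCs. The immunoproteasome subunits Psmb8, Psmb9 and Psmb10 summed to 16.4 to 26.0 CPM per kilobase over the 6 groups, well under the subunits they replace. Exon length here is that of all annotated transcripts of a gene, so that a gene with long rare isoforms appears lower.

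The first comparison asked whether the 1013 allele went with other levels of proteasome genes in SSCs, and the whole constitutive set lay higher in mutant than in WT SSCs, although no single member passed the threshold in edgeR. All 31 constitutive subunits were above WT in +/1013 SSCs, by a median of 0.69 on the log2 scale (range 0.22 to 0.99), against a median of -0.11 over all genes tested. All 31 were above WT in 1013/1013 SSCs also, by a median of 0.77 (range 0.09 to 1.13), against -0.23 over all genes. Both comparisons use the same 3 WT libraries. Single markers of the more differentiated cells and of the gate differed between the same libraries, on the scale of all 17 libraries. Col1a1, the main collagen gene of bone, had 7535 to 10539 CPM in WT and 1006 to 2954 CPM in mutant SSCs. Ly6a, which encodes Sca-1, had 386 to 599 CPM and 838 to 1450 CPM. Col1a2 and Runx2 were also lower in mutant SSCs without overlap. Ibsp, Alpl, Sp7, Bglap and Bglap2 overlapped, as did Spp1, at 1477 to 2814 CPM in WT and 1553 to 4767 CPM in mutant SSCs. Of the other gate markers, Pdgfra overlapped and Itgav was lower in mutant SSCs without overlap. The part of these markers in the subunit values was not tested. On the scale of all 17 libraries, the 31 subunits summed to 2402 to 2644 CPM in WT SSCs and to 3636 to 4180 CPM in mutant SSCs. OPC sums ran from 2920 to 3948 CPM, all above WT SSCs and overlapping with mutant SSCs.

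Library by library, the SSC groups did not overlap. Taken over the 31 subunits, the median log2 deviation from WT was 0.09, -0.05 and -0.04 in the 3 WT SSC libraries themselves. It was 0.71, 0.79 and 0.52 in the +/1013 libraries and 0.83 and 0.73 in the 1013/1013 libraries. Of the 31 subunits, 31, 30 and 30 were above every WT library in the +/1013 libraries and 27 and 31 in the 1013/1013 libraries. The share of all genes above every WT library was not counted for single libraries, so these counts have no baseline. Of all genes, 14.5% in +/1013 and 16.7% in 1013/1013 SSCs had every mutant library above every WT library. SSC WT replicate 3, with the high leukocyte sum, stood with the other WT libraries in the median deviation. The share of reads outside exons and the number of genes with a count moved with the mutant groups, as given above. So did the shares of reads without a unique place and of reads that fit several genes. The part of these measures in the result was not tested. In OPCs the same deviation ran from -0.29 to 0.18 and the genotypes overlapped.

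**Figure D1:**
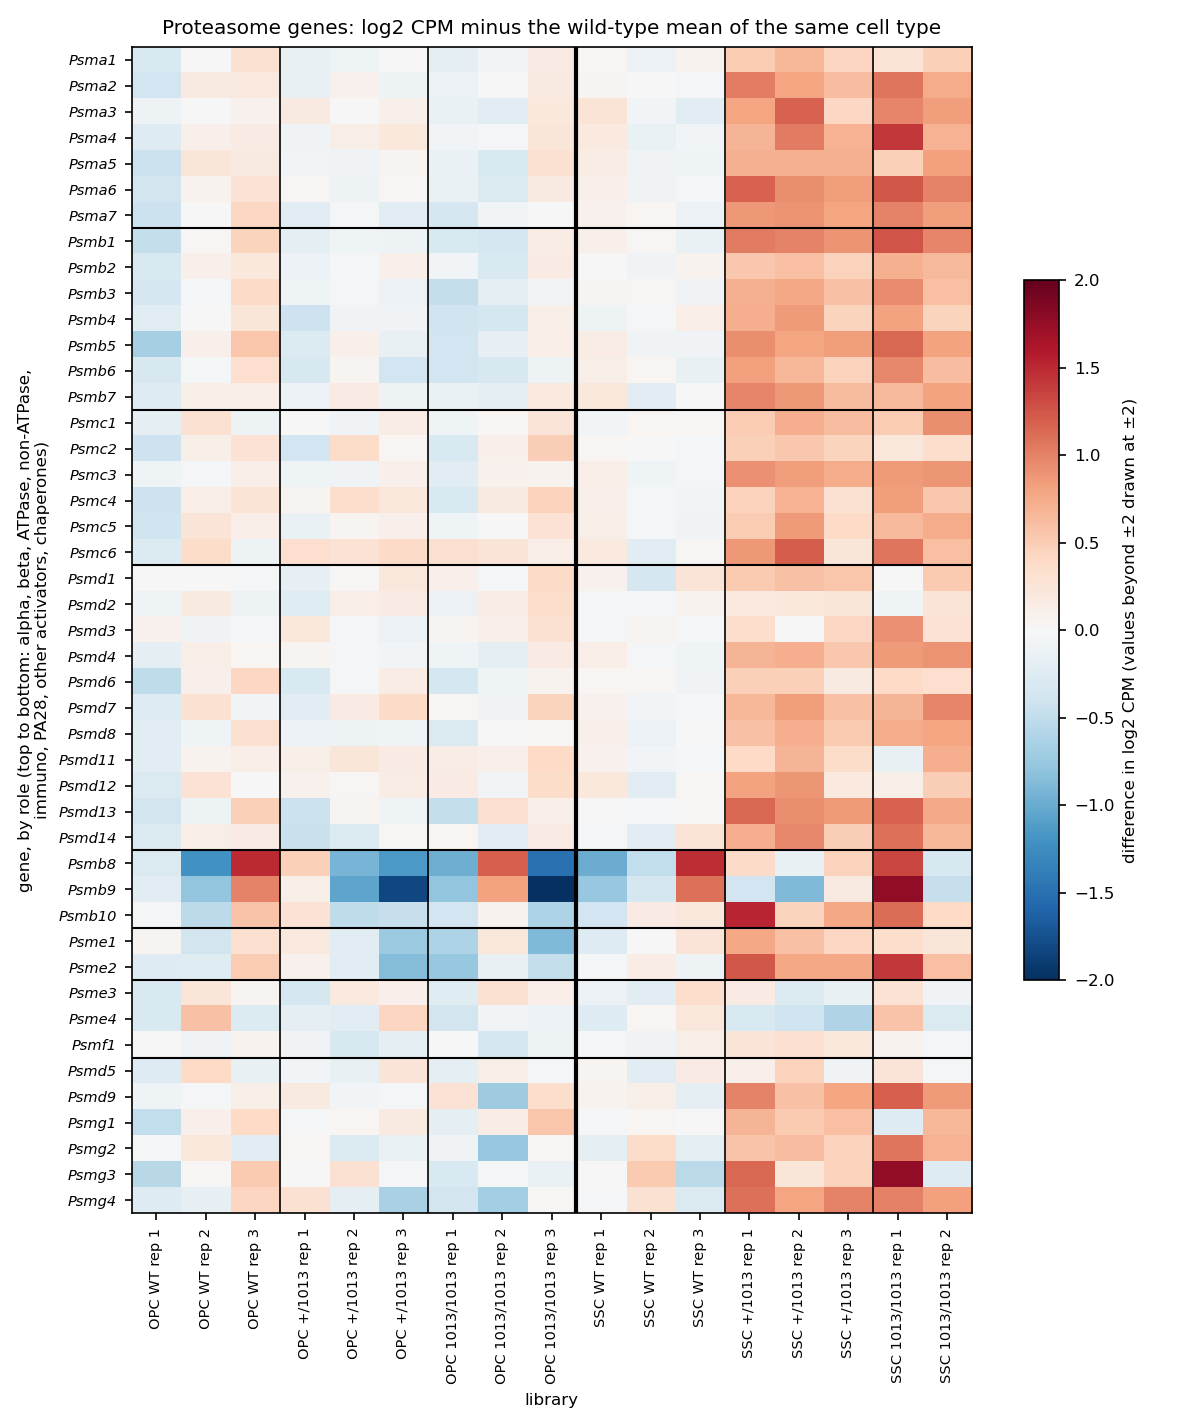
Difference in log2 CPM from the WT mean of the same cell type (color, from -2 to 2) for the tested proteasome genes other than Psma8 (rows, by role) in 17 libraries (columns); thin lines part genotypes and the thick line parts OPCs from SSCs. The blocks of constitutive subunits are red in all 5 mutant SSC libraries, with medians of 0.52 to 0.83, and pale in OPCs, while Psmb8 and Psmb9 vary from library to library within a genotype.

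**Figure D2:**
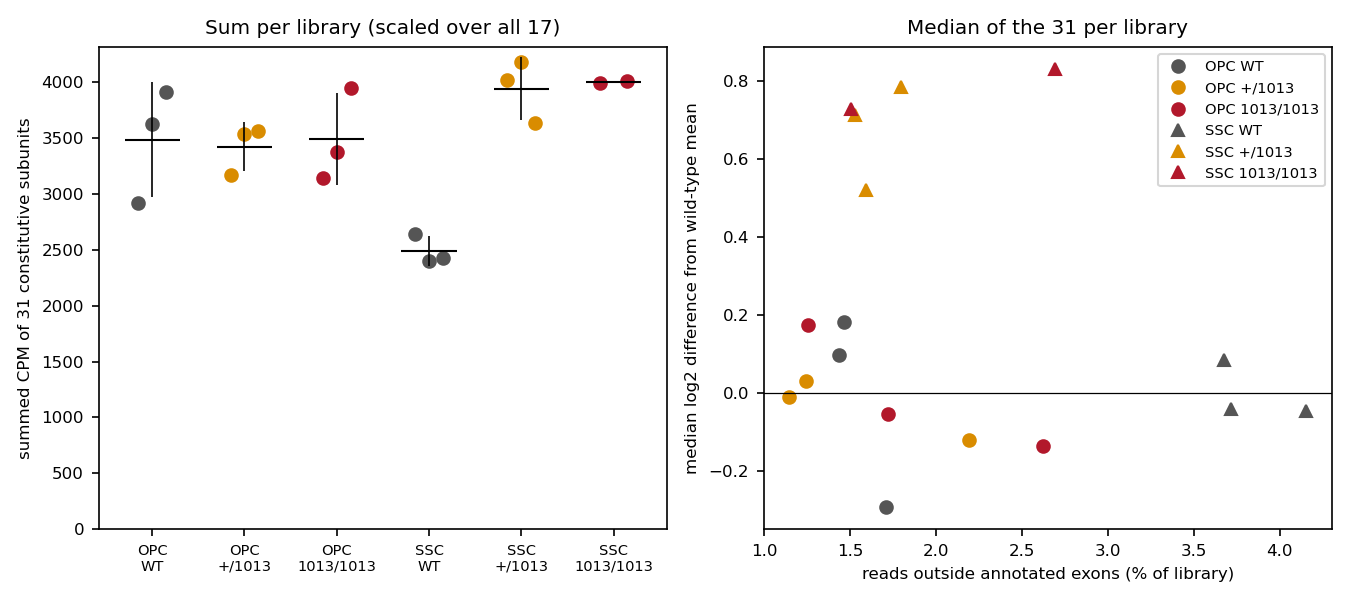
Left, summed CPM of the 31 constitutive subunits in each library (points), scaled over all 17 libraries, with the mean and SD of each group (bars). Right, median log2 difference of the 31 subunits from the WT mean of the cell type against the percent of reads outside annotated exons; the 3 WT SSC libraries lie at 3.68% to 4.15% and near 0, and the 5 mutant SSC libraries at 1.504% to 2.69% and at 0.52 to 0.83.

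Genes were called where the fold was 1.5 or more and the p, adjusted by Benjamini-Hochberg, lay below 0.05. By this rule edgeR's quasi-likelihood test called none of the 47 members in +/1013 SSCs (0.0736% of all genes were called) and none in 1013/1013 SSCs (0% of all genes). At an unadjusted p under 0.05, 28 of the 31 constitutive subunits were higher in +/1013 SSCs, against 7.65% of all genes, and 24 in 1013/1013 SSCs, against 8.37% of all genes. No constitutive subunit was lower at that level in either comparison. The libraries did not overlap for 29 of the 31 in +/1013 SSCs, all higher, where 14.5% of all genes were higher without overlap and 16.8% lower. They did not overlap for 27 in 1013/1013 SSCs, all higher, where 16.7% of all genes were higher without overlap and 24.4% lower. With the filter of at least 10 counts, 28 and 27 were higher without overlap, against 18.7% and 21.6% of genes. DESeq2's Wald test called 16 of the 47 members in +/1013 SSCs, where it called 7.37% of all genes, and 23 in 1013/1013 SSCs, where it called 9.67%. A single edgeR fit of all 17 libraries called 3 and 6 members, and 0.716% and 1.05% of all genes. Without SSC 1013/1013 replicate 2, which leaves 1 library that is assumed to vary like the others, edgeR called 13 members in 1013/1013 SSCs and 14.8% of all genes.

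**Figure D3:**
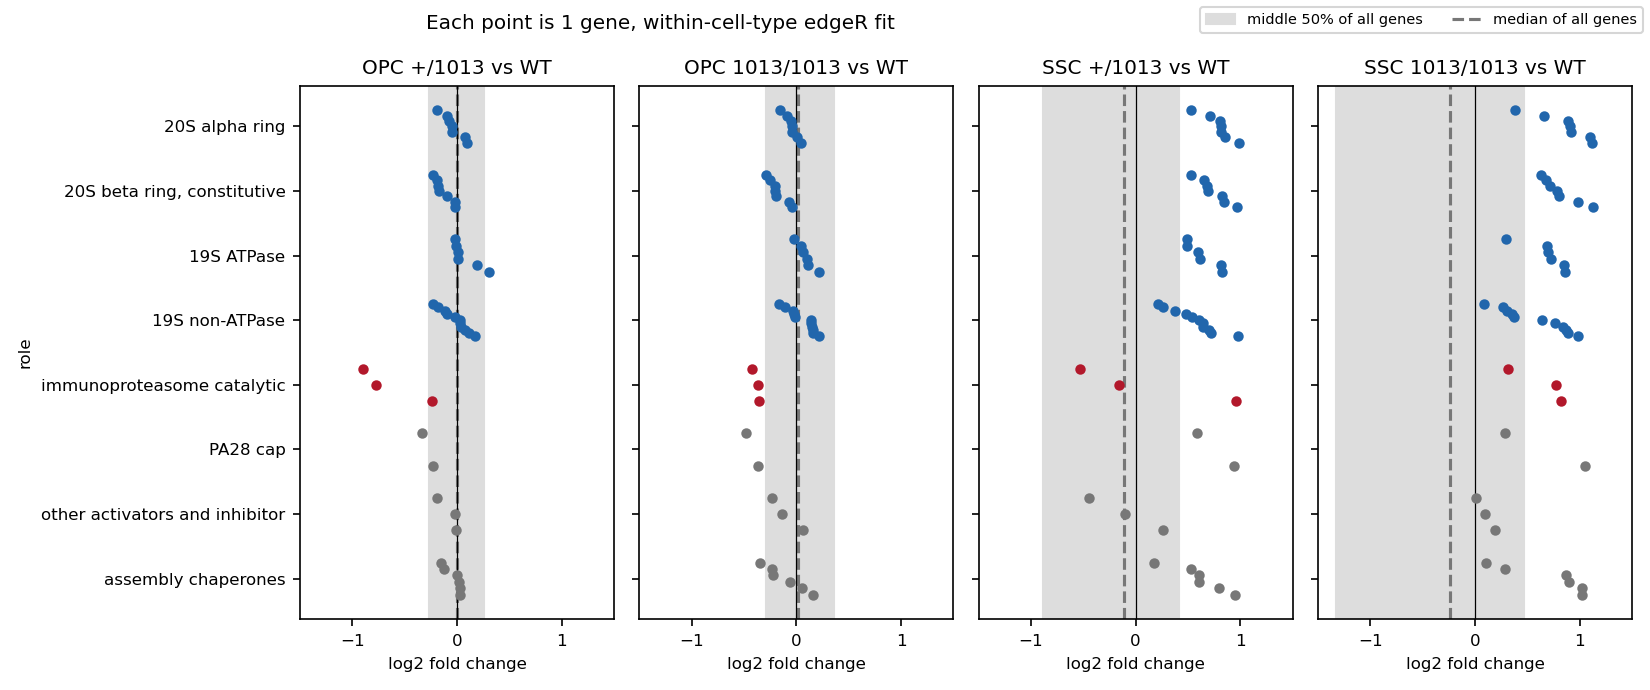
Log2 fold change of each member (point) from WT by role (rows) in the edgeR fit within each cell type, with the median (dashed line) and the middle 50% (grey band) of all genes tested. In SSCs most constitutive subunits (blue) lie to the right of the band, with medians of 0.69 and 0.77, whereas in OPCs they lie within it except Psmc6 in +/1013 (0.31); immunoproteasome subunits are red and other groups grey.

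Within the 20S core, the alpha ring, which gates the entry of substrates, had a median log2 difference of 0.82 in +/1013 and 0.91 in 1013/1013 SSCs, and all 7 subunits were free of overlap with WT in both. Of all genes, 14.5% in +/1013 and 16.7% in 1013/1013 SSCs were higher without overlap. The same shares stand beside the counts of the beta ring and the cap below. Psma6 had 99.9, 89.0 and 91.6 CPM in WT SSCs, 211, 178 and 167 in +/1013 SSCs and 220 and 186 in 1013/1013 SSCs. Every mutant library lay above every WT library. Its log2 difference was 0.99 (SE 0.16, edgeR adjusted p = 0.0829) in +/1013 and 1.12 (SE 0.18, adjusted p = 0.0798) in 1013/1013 SSCs. Psma4 had 72.9, 58.2 and 61.6 CPM in WT, 102, 131 and 104 in +/1013 and 171 and 104 in 1013/1013 SSCs, so that 1 of the 1013/1013 libraries lay well above the other. The log2 difference of Psma4 in 1013/1013 SSCs was 1.10 (SE 0.25, adjusted p = 0.120).

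The constitutive beta ring, which holds the active sites, had median log2 differences of 0.69 and 0.78, again without overlap for all 7 subunits. Psmb1, a noncatalytic beta subunit, had 94.4, 88.6 and 80.2 CPM in WT SSCs, 179, 174 and 163 in +/1013 SSCs and 210 and 173 in 1013/1013 SSCs. It had the lowest adjusted p of all members in both comparisons, with log2 differences of 0.97 (SE 0.16, edgeR adjusted p = 0.0740) and 1.13 (SE 0.17, adjusted p = 0.0738).

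Psmb5, the chymotrypsin-like subunit and main target of proteasome inhibitors, had 34.2, 29.4 and 29.5 CPM in WT SSCs, 58.9, 53.3 and 55.0 in +/1013 SSCs and 68.7 and 53.9 in 1013/1013 SSCs. The means were 31.005 ± 2.74, 55.7 ± 2.89 (SD, n = 3 each) and 61.3 ± 10.5 (SD, n = 2), and mutant and WT libraries did not overlap. The log2 difference was 0.85 (SE 0.17, edgeR adjusted p = 0.117) in +/1013 and 0.98 (SE 0.19, adjusted p = 0.1001) in 1013/1013 SSCs. Psmb6, the caspase-like subunit, had 141, 134 and 117 CPM in WT, 229, 206 and 179 in +/1013 and 255 and 201 in 1013/1013 SSCs. These libraries were also free of overlap with WT, with log2 differences of 0.65 (SE 0.18, adjusted p = 0.163) and 0.80 (SE 0.20, adjusted p = 0.132). Psmb7, the trypsin-like subunit, had 29.7, 22.2 and 25.7 CPM in WT, 50.8, 46.9 and 39.7 in +/1013 and 40.3 and 44.8 in 1013/1013 SSCs. For this subunit the +/1013 libraries reached higher than the 1013/1013 libraries, with log2 differences from WT of 0.82 (SE 0.20, adjusted p = 0.141) and 0.72 (SE 0.22, adjusted p = 0.174). In edgeR none of these 3 catalytic genes passed the threshold, and all had mutant libraries above the WT range. DESeq2 called Psmb5 and Psmb6 in both mutants (adjusted p = 0.00247 and 0.0427 in +/1013, 0.000936 and 0.0134 in 1013/1013) and Psmb7 in +/1013 SSCs (adjusted p = 0.0111).

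In the 19S cap, the 6 ATPases that unfold substrates had median log2 differences of 0.61 and 0.71, without overlap for all 6 in both genotypes. The 11 other cap subunits had medians of 0.61 and 0.64 and were more uneven. Of these 11, 9 and 7 were free of overlap, against 14.5% and 16.7% of all genes higher without overlap. Psmd13 had 81.0, 78.6 and 81.5 CPM in WT SSCs, 178, 153 and 145 in +/1013 SSCs and 182 and 135 in 1013/1013 SSCs. It led the cap, with log2 differences of 0.98 (SE 0.17, edgeR adjusted p = 0.0934) and 0.98 (SE 0.19, adjusted p = 0.1001). Psmd2, the large scaffold of the cap, had 239, 238 and 255 CPM in WT, 279, 284 and 287 in +/1013 and 229 and 290 in 1013/1013 SSCs. It had the smallest difference of the 31 in both genotypes, at 0.22 (SE 0.16) and 0.09 (SE 0.17), and 1 of its 1013/1013 libraries lay below all WT libraries. Psmd3 and Psmd12 overlapped with WT in +/1013 SSCs, and Psmd1, Psmd2, Psmd11 and Psmd12 did so in 1013/1013 SSCs.

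The immunoproteasome subunits did not move as a set. Psmb8 had 6.35, 9.04 and 35.4 CPM in WT SSCs, 16.6, 11.4 and 17.5 in +/1013 SSCs and 32.0 and 10.1 in 1013/1013 SSCs. Psmb9 had 5.17, 6.88 and 18.8 CPM in WT, 6.69, 4.75 and 9.92 in +/1013 and 29.9 and 6.38 in 1013/1013 SSCs. Both were highest in WT replicate 3 or 1013/1013 replicate 1, and the genotypes overlapped. The log2 differences were -0.16 (SE 0.70, edgeR adjusted p = 0.951) and 0.32 (SE 0.78, adjusted p = 0.845) for Psmb8. For Psmb9 they were -0.53 (SE 0.71, adjusted p = 0.792) and 0.82 (SE 0.78, adjusted p = 0.581). Single libraries set these signs: without SSC WT replicate 3, +/1013 minus WT was 0.97 for Psmb8 and 0.24 for Psmb9, and without SSC 1013/1013 replicate 1, 1013/1013 minus WT was -0.75 and -0.69. Psmb10 had 15.9, 23.2 and 24.2 CPM in WT, 59.9, 28.2 and 35.3 in +/1013 and 44.9 and 27.4 in 1013/1013 SSCs, with every mutant library above WT. Its log2 differences were 0.96 (SE 0.35, adjusted p = 0.234) and 0.77 (SE 0.39, adjusted p = 0.323). Ptprc, which encodes CD45, had 9.33, 1.53 and 150 CPM in WT SSCs, at most 1.11 in +/1013 SSCs, and 0.0462 and 11.1 in 1013/1013 SSCs. Psmb8 and Psmb9 were thus high together with Ptprc in WT replicate 3 but not in 1013/1013 replicate 1, where Ptprc was under the limit of 3 counts while Lyz2, a myeloid gene, had 591 CPM. The part of leukocyte RNA in these values was not tested.

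The PA28 cap opens the core without ubiquitin, and its 2 subunits differed from each other in 1013/1013 SSCs. Psme2 had 61.6, 69.9 and 58.7 CPM in WT SSCs, 149, 108 and 108 in +/1013 SSCs and 168 and 95.5 in 1013/1013 SSCs. All mutant libraries were above WT, with log2 differences of 0.94 (SE 0.25, edgeR adjusted p = 0.159) and 1.06 (SE 0.27, adjusted p = 0.143). DESeq2 called Psme2 in both mutants (adjusted p = 0.0354 and 0.0249). Psme1 had 50.1, 60.1 and 71.5 CPM in WT, 102.4, 89.99 and 80.1 in +/1013 and 76.7 and 71.0 in 1013/1013 SSCs. Its +/1013 libraries were above WT (0.58, SE 0.19, adjusted p = 0.198), and its 1013/1013 libraries overlapped with WT (0.29, SE 0.21, adjusted p = 0.468). Of the other activators, Psme4 (PA200) had 22.4, 27.6 and 31.3 CPM in WT, 21.7, 20.3 and 17.6 in +/1013 and 40.1 and 22.0 in 1013/1013 SSCs. It was the 1 member lower without overlap in +/1013 SSCs (-0.45, SE 0.28, adjusted p = 0.472), where 16.8% of all genes were. Psme3 (PA28 gamma) and the inhibitor Psmf1 differed from WT by -0.10 to 0.27 on the log2 scale.

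**Figure D4:**
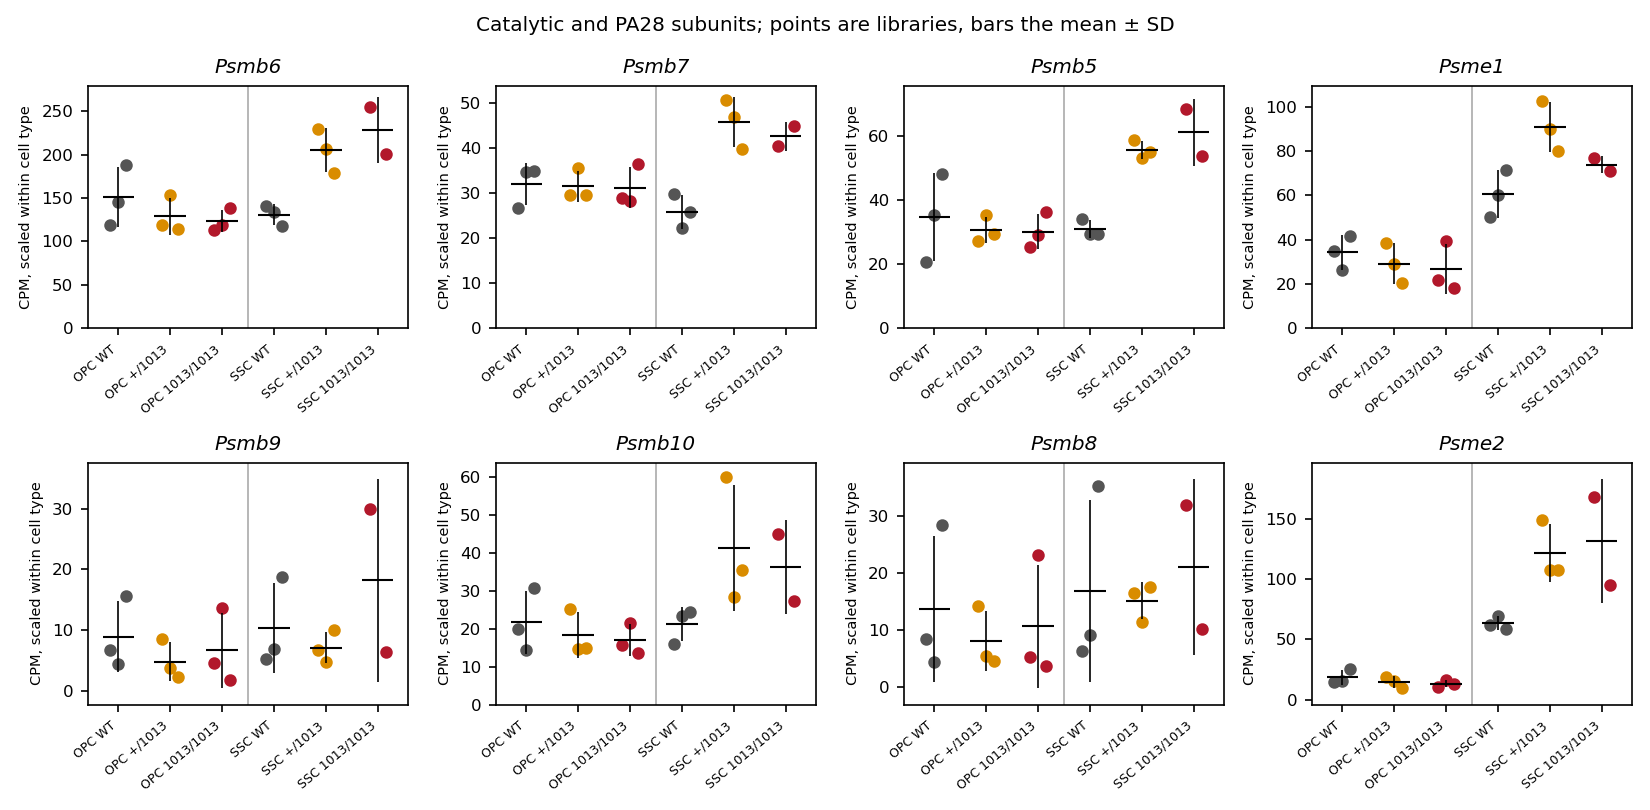
CPM of 6 catalytic and 2 PA28 subunits, normalized within each cell type, in each library (points), with the mean and SD of each group (bars). In SSCs the mutant libraries of Psmb5, Psmb6, Psmb7, Psmb10 and Psme2 lie above all WT libraries, whereas those of Psmb8 and Psmb9 overlap with WT; the levels of OPCs and SSCs are on separate scales.

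Assembly chaperones, which build the core and the cap, were above WT in all 6 tested members in both genotypes, by medians of 0.60 and 0.88 on the log2 scale. No chaperone was called by edgeR, and 4 of 6 in +/1013 and 3 of 6 in 1013/1013 SSCs did not overlap with WT, all higher. Of all genes, 14.5% and 16.7% were higher without overlap in these comparisons. Psmd9 had 35.1, 36.3 and 29.0 CPM in WT SSCs, 66.5, 49.8 and 57.5 in +/1013 SSCs and 76.0 and 59.8 in 1013/1013 SSCs. This chaperone of the cap base had log2 differences of 0.79 (SE 0.20, edgeR adjusted p = 0.150) and 1.02 (SE 0.21, adjusted p = 0.107). DESeq2 called Psmd9 in both mutants (adjusted p = 0.0235 and 0.00391) and Psmg2 in 1013/1013 SSCs (adjusted p = 0.0398). Over all 46 tested proteasome members, 42 were above WT in +/1013 SSCs and 45 in 1013/1013 SSCs, and the exception in the latter was Psma8, which was listed at 0 in 2 SSC libraries.

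Between the mutant genotypes, the constitutive subunits lay close together in SSCs. The median difference of 1013/1013 minus +/1013 was 0.09 on the log2 scale (range -0.34 to 0.37), against -0.05 over all genes, with 21 higher and 10 lower. No member was called by edgeR (0% of all genes) or DESeq2 (0.957% of all genes), none had an unadjusted p under 0.05, and 9 of the 46 proteasome members did not overlap, 5 higher and 4 lower, against 15.9% of all genes. The largest positive differences among members of at least 10 CPM were those of Psmb9 (1.35, SE 0.78, adjusted p = 0.788), Psme4 (0.64, SE 0.31) and Psmb8 (0.48, SE 0.78). The largest negative ones were those of Psmd12 (-0.34, SE 0.26), the core chaperone Psmg1 (-0.32, SE 0.34) and Psme1 (-0.30, SE 0.21). Without SSC 1013/1013 replicate 1 the median of the 31 was -0.02, and without SSC +/1013 replicate 3 it was 0.001.

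In OPCs no such shift was seen. The 31 constitutive subunits had a median log2 difference from WT of -0.02 in +/1013 (range -0.23 to 0.31, 12 higher and 19 lower) and of -0.03 in 1013/1013 OPCs (range -0.29 to 0.22, 13 higher and 18 lower). The medians of all genes were -0.0042 and 0.01. Leaving out single libraries moved the constitutive medians across 0, from -0.15 to 0.06 in +/1013 and from -0.14 to 0.07 in 1013/1013 OPCs. No member was called in +/1013 OPCs (0% of all genes), in 1013/1013 OPCs (0.00617% of all genes) or between the mutants (0% of all genes) by edgeR, nor by DESeq2, which called 0.358%, 0.259% and 0.364% of all genes. At an unadjusted p under 0.05 there was 1 member in these 3 comparisons, Psma8 in 1013/1013 OPCs. No proteasome member was free of overlap with WT, where 5.3% of all genes were in +/1013 and 7.61% in 1013/1013 OPCs. Between the mutants, the chaperone Psmg3 was the 1 member without overlap, with 5.18, 6.41 and 5.13 CPM in +/1013 and 4.21, 5.08 and 4.76 in 1013/1013 OPCs, where 7.23% of all genes did not overlap. The constitutive median was -0.0014 in that comparison.

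The catalytic subunits illustrate the spread in OPCs. Psmb5 had 20.8, 35.5 and 48.4 CPM in WT, 27.3, 35.3 and 29.6 in +/1013 and 25.2, 29.3 and 36.2 in 1013/1013 OPCs. Psmb6 had 119, 146 and 188 CPM in WT, 119, 153 and 114 in +/1013 and 114, 119 and 138 in 1013/1013 OPCs. The mutant libraries of both lay within the WT range or close to its lower end. Psmb7 had 26.6, 34.6 and 34.9 CPM in WT, 29.5, 35.5 and 29.7 in +/1013 and 28.9, 28.2 and 36.4 in 1013/1013 OPCs. The log2 differences from WT of these 3 genes were -0.02 to -0.29 over both mutants, with SEs of 0.19 to 0.30 and edgeR adjusted p of 1.00. Among members of at least 10 CPM, the ATPase Psmc6 had the largest positive difference in both, at 0.31 (SE 0.19) in +/1013 and 0.22 (SE 0.19) in 1013/1013 OPCs. Psmc4 (0.19, SE 0.25) and Psmd11 (0.17, SE 0.16) followed in +/1013 and Psmd11 (0.22, SE 0.16) and Psmd1 (0.16, SE 0.18) in 1013/1013 OPCs. Between the mutants they were Psmd14 (0.22), Psmd13 (0.16) and Psmg1 (0.14), and at the lower end Psme4 (-0.21), Psme2 (-0.15) and Psmb3 (-0.15), none with a p under 0.05.

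At the lower end of the OPC comparisons with WT stood the interferon-inducible genes, with wide errors. Psmb8 had 8.33, 4.40 and 28.4 CPM in WT, 14.2, 5.30 and 4.58 in +/1013 and 5.15, 23.2 and 3.61 in 1013/1013 OPCs. Psmb9 had 6.75, 4.48 and 15.5 CPM in WT, 8.44, 3.74 and 2.19 in +/1013 and 4.52, 13.6 and 1.84 in 1013/1013 OPCs. In WT and 1013/1013 OPCs both were highest in the library with the high leukocyte sum, where Ptprc had 44.6 CPM (WT replicate 3) and 98.3 CPM (1013/1013 replicate 2) against 0.543 to 2.08 CPM in the other 4, and the part of leukocyte RNA was not tested. Psmb10 had 19.9, 14.3 and 30.6 CPM in WT, 25.3, 14.5 and 14.99 in +/1013 and 15.8, 21.5 and 13.5 in 1013/1013 OPCs. Psme1 had 34.8, 26.1 and 41.7 CPM in WT, 38.3, 29.0 and 20.2 in +/1013 and 21.8, 39.3 and 18.3 in 1013/1013 OPCs, with overlap in both. Psme2 had 15.1, 15.1 and 25.4 CPM in WT, 19.1, 15.3 and 9.84 in +/1013 and 10.6, 16.2 and 12.9 in 1013/1013 OPCs. The differences were -0.77 (SE 0.90) for Psmb8, -0.33 (SE 0.33) for Psme2 and -0.24 (SE 0.35) for Psmb10 in +/1013, and -0.48 (SE 0.33) for Psme2, -0.37 (SE 0.35) for Psme1 and -0.37 (SE 0.90) for Psmb8 in 1013/1013 OPCs, on the log2 scale and with edgeR adjusted p of 1.00.

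Whether the genotype effect differed between the cell types was tested as an interaction in the joint fit. The +/1013 effect was larger in SSCs than in OPCs for 31 of the 31 constitutive subunits, by a median of 0.73 on the log2 scale, against -0.14 over all genes. The 1013/1013 effect was larger for 30 of the 31, by a median of 0.75, against -0.39 over all genes. At an unadjusted p under 0.05, 21 of the 31 had a larger effect in SSCs in each genotype, where 4.6% (+/1013) and 5.9% (1013/1013) of all genes had. edgeR called none of the 47 members in either interaction (0.084% and 0.153% of all genes were called), with lowest adjusted p of 0.218 and 0.118. DESeq2 called 6 and 13 members, and 2.16% and 5.64% of all genes. In the 1013/1013 interaction, leaving out OPC WT replicate 1 gave 1 member call (0.248% of all genes) and leaving out SSC 1013/1013 replicate 2 gave 6 (8.73% of all genes). Both interactions use the same WT libraries.

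Between the cell types of WT mice, most constitutive subunits were lower in SSCs than in OPCs. Of the 31, 27 were lower and 4 higher, with a median log2 difference of -0.64, against 0.17 over all genes. In all, 19 members passed the threshold in edgeR, 3 higher in SSCs, where 5.55% of all genes were called higher, and 16 lower, where 5.86% were. Of the 31 constitutive subunits, 2 were called higher and 14 lower. The joint scale of all 17 libraries is used here, and the collagen-rich OPC and the SSC libraries differ in composition, so that levels are relative to the rest of each transcriptome. Depth and the share of reads that fit several genes also parted OPC from SSC libraries without overlap. Such library differences cannot be told apart from cell type here.

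The alpha and beta ring genes called lower in WT SSCs were Psma1, Psma6, Psma7, Psmb1, Psmb2, Psmb4, Psmb6 and Psmb7, with log2 differences of -0.61 to -0.93. Psma6 had 112, 149 and 174 CPM in WT OPCs and 82.5, 73.3 and 73.3 in WT SSCs, with every SSC library below (-0.93, SE 0.18, edgeR adjusted p = 0.00523). Psmb6 had 143, 172 and 223 CPM in WT OPCs and 117, 110 and 93.9 in WT SSCs (-0.75, SE 0.20, adjusted p = 0.0245). In the cap, Psmc3, Psmc5, Psmd1, Psmd6, Psmd13 and Psmd14 were called lower. Psmc3 had 208, 211 and 239 CPM in WT OPCs and 142, 121 and 122 in WT SSCs (-0.78, SE 0.15, adjusted p = 0.00409). Psmg1, which dimerizes with Psmg2 to build the alpha ring, had 16.8, 24.9 and 30.5 CPM in OPCs and 10.6, 11.3 and 10.6 in SSCs, and was called lower (-1.15, SE 0.28, adjusted p = 0.0177). Psme4 had 33.6, 61.2 and 34.0 CPM in OPCs and 18.5, 22.7 and 25.1 in SSCs, also called lower (-0.96, SE 0.28, adjusted p = 0.0432).

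Higher in WT SSCs were Psma3, Psmb3 and Psme2. Psma3 had 25.3, 26.7 and 28.4 CPM in WT OPCs and 83.5, 66.5 and 58.2 in WT SSCs (1.37, SE 0.20, edgeR adjusted p = 0.000868). Psmb3 had 19.97, 24.2 and 32.4 CPM in OPCs and 64.3, 62.3 and 56.8 in SSCs (1.26, SE 0.18, adjusted p = 0.000828). Psme2 had 18.1, 17.9 and 30.1 CPM in OPCs and 50.9, 57.5 and 47.0 in SSCs (1.23, SE 0.30, adjusted p = 0.0165). These 3 genes thus went against the rest of the set, with no overlap between the cell types. The number of members called in WT rests on single libraries. It was 22, 6 and 7 without OPC WT replicates 1, 2 and 3 (11.5%, 6.68% and 7.26% of all genes), and 11, 8 and 10 without SSC WT replicates 1, 2 and 3 (7.05%, 7.41% and 7.66% of all genes).

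In the mutants the constitutive set as a whole was not lower in SSCs. The constitutive median of SSCs minus OPCs was 0.15 in +/1013, against 0 over all genes, and 0.26 in 1013/1013 mice, against -0.20 over all genes. Among +/1013 mice, 7 members were called, 6 higher in SSCs (6.44% of all genes) and Psme4 lower (-1.38, SE 0.29, edgeR adjusted p = 0.00659, where 6.02% of all genes were called lower). Those higher were Psme2 (2.51, SE 0.31, adjusted p = 0.000152), Psma3 (2.11, SE 0.21, adjusted p = 1.94e-05), Psmb3 (2.06, SE 0.19, adjusted p = 9.51e-06), Psma5 (1.26, SE 0.21), Psme1 (1.11, SE 0.30, adjusted p = 0.0274) and Psmd11 (0.94, SE 0.21). Psme1, with 45.9, 34.6 and 24.1 CPM in +/1013 OPCs and 84.7, 74.5 and 66.5 in +/1013 SSCs, was no longer called without any one of 4 of the 6 libraries (OPC replicates 2 and 3, SSC replicates 1 and 2).

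Among 1013/1013 mice, 8 members were called. Psme2 (2.75, SE 0.33), Psma3 (2.29, SE 0.22), Psmb3 (2.28, SE 0.20), Psma5 (1.18, SE 0.23), Psma4 (0.74, SE 0.22, edgeR adjusted p = 0.0383) and Psmd11 (0.74, SE 0.23, adjusted p = 0.0466) were higher in SSCs, where 6.94% of all genes were called higher. Psmg1 (-1.03, SE 0.32, adjusted p = 0.04996) and Psmd1 (-0.73, SE 0.22, adjusted p = 0.0437) were lower, where 6.12% of all genes were. There were 5 member calls without OPC 1013/1013 replicate 1 (9.71% of all genes) or SSC 1013/1013 replicate 1 (4.84%), and 4 without OPC 1013/1013 replicate 3 (8.42%) or with a block for the replicate number (10.2%). Among members called in edgeR, Psme2 had the largest log2 difference between the cell types in both mutants, at 11.8 to 22.9 CPM in +/1013 OPCs and 89.2 to 123 in +/1013 SSCs. In 1013/1013 mice it had 12.7, 19.5 and 15.2 CPM in OPCs and 133 and 78.9 in SSCs.

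Several members that were higher in SSCs have near-identical copies in the genome, and this was examined after their values had been seen. The longest coding transcript of each member was compared with all GENCODE M21 transcripts, and a stretch of at least 75 bases with at least 97% identity in another gene counted as a copy. Such a stretch lay in an annotated pseudogene for 6 of the 31 constitutive subunits: Psma3 (23.4% of the transcript), Psma5 (76.5%), Psmb3 (80.7%), Psmb5 (88.4%), Psmc1 (45.8%) and Psmd11 (52.7%). Of Psme2, 82.5% was matched in Psme2b, which had at most 0.0559 CPM. Psmb7, Psmd13, Psma4, Psmd1 and Psmc3 had shorter stretches, of 8.14% to 35.1%, in genes that are not pseudogenes, in part where exons of neighbouring genes overlap.

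The comparison of cell types looked different with and without these 6 genes. In WT mice the 25 other constitutive subunits were all lower in SSCs (median -0.69, range -0.93 to -0.01, 14 called), while the 6 had a median of 0.55 (range -0.71 to 1.37) and 4 of them were higher. In +/1013 mice the 25 had a median of 0.12 with 18 higher, 7 lower and none called in edgeR, against a median of 1.10 and 6 of 6 higher for those with a pseudogene copy. In 1013/1013 mice the 25 had a median of 0.08 with 15 higher and 10 lower, against 0.96 and 6 of 6 higher. The 8 pseudogene copies themselves had at most 1.01 CPM in OPCs and 2.68 CPM in SSCs. Reads without a unique place were 7.75% to 10.4% of OPC, 5.10% to 5.65% of WT SSC and 5.76% to 8.56% of mutant SSC libraries. Reads that fit several genes were 1.87% to 2.62% of OPC and 3.28% to 3.93% of SSC libraries. The part of read counting in these differences was not tested. The comparison of genotypes within SSCs was as large without the 6 genes: the 25 others were all above WT in both mutants, with medians of 0.65 and 0.77, against 0.70 and 0.76 for the 6.

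**Figure D5:**
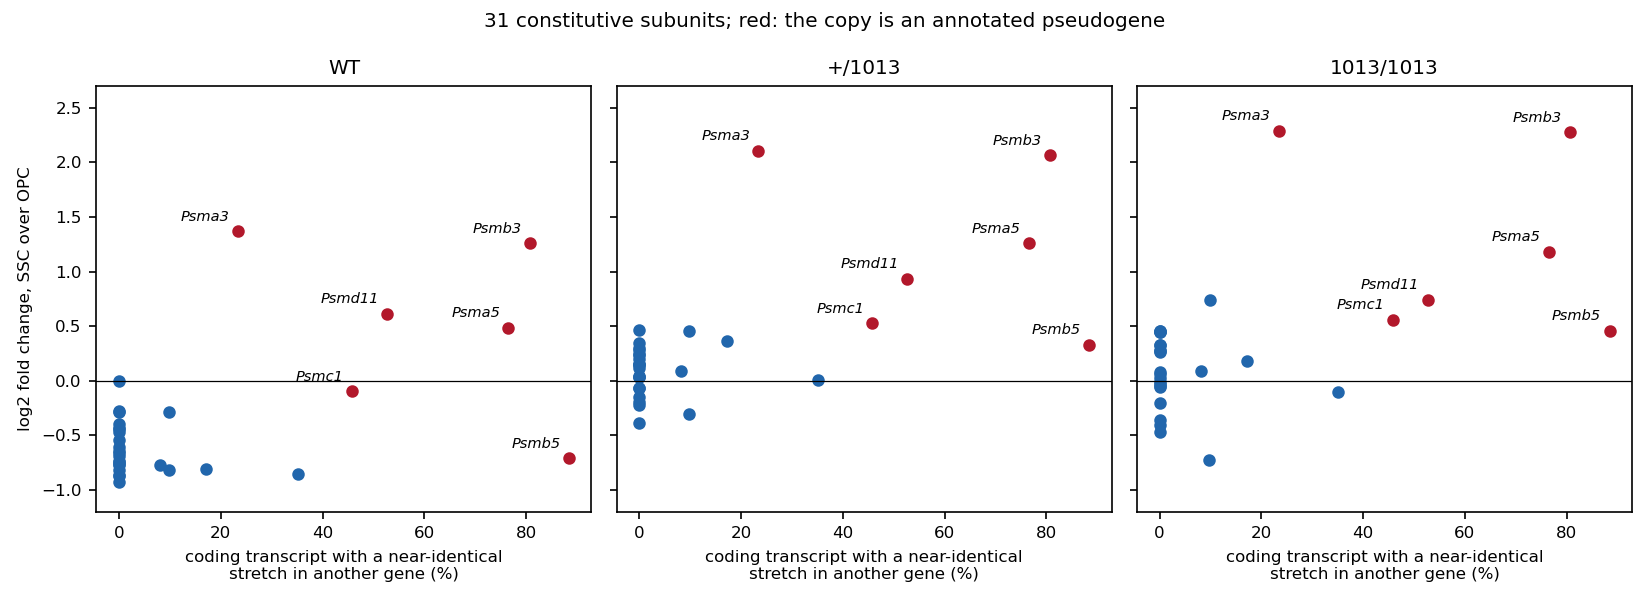
Log2 fold change of SSCs over OPCs in each genotype for the 31 constitutive subunits (points) against the percent of the coding transcript with a near-identical stretch in another gene; red points have the stretch in an annotated pseudogene. In WT mice the 25 blue points lie below 0 with a median of -0.69, and the red points of Psma3, Psmb3, Psma5 and Psmd11 lie above 0.

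The balance of immunoproteasome to constitutive catalytic subunits was taken as the summed CPM of Psmb8, Psmb9 and Psmb10 over that of Psmb5, Psmb6 and Psmb7 in each library. It ran from 0.0899 to 0.330 in OPCs and from 0.134 to 0.454 in SSCs. The highest values were those of SSC WT replicate 3 (0.454) and OPC 1013/1013 replicate 2 (0.330), which also had high leukocyte sums. In 10 two-sided exact permutation tests of the log2 ratio, between genotypes within a cell type and between cell types, p ranged from 0.3195 to 1, and all adjusted p were 1. An exact permutation test of this design cannot go below p = 0.1 with 3 against 3 libraries and 0.2 with 3 against 2. Over all genotypes, the log2 ratio was 0.36 higher in SSCs than in OPCs (exact p = 0.3195 over 4000 regroupings within genotype).

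In none of 5 lists of other pathway genes were all members above WT in mutant SSCs, and edgeR called none of their genes in a comparison with WT. List medians are read beside those of all genes, -0.11 in +/1013 and -0.23 in 1013/1013 SSCs, and differences between lists were not tested. These lists mix genes of different roles, and no list of another large complex was compared. Of 13 proteasome-associated symbols 11 were matched and tested, with medians of 0.24 in both mutants, 7 higher and 4 lower. Pomp, the maturation chaperone of the core, had 56.3, 53.3 and 52.3 CPM in WT SSCs, 99.0, 83.5 and 79.6 in +/1013 SSCs and 103 and 99.7 in 1013/1013 SSCs (0.70, SE 0.15, edgeR adjusted p = 0.125, and 0.91, SE 0.17, adjusted p = 0.0924). Sem1, a small cap subunit whose symbol the rule does not take, had 52.9, 54.7 and 41.4 CPM in WT, 81.0, 82.3 and 77.7 in +/1013 and 88.5 and 89.6 in 1013/1013 SSCs. Both lay above the WT range in every mutant library, as the constitutive subunits did. Ecpas, a scaffold that binds the proteasome, lay below it, at 66.4, 56.3 and 69.1 CPM in WT, 23.5, 41.6 and 37.0 in +/1013 and 19.3 and 31.5 in 1013/1013 SSCs (-0.91, SE 0.28, and -1.33, SE 0.33). The ubiquitin receptor Adrm1 was near WT in mutant SSCs (0.13 and -0.0021) but differed between cell types, with 7.10, 7.70 and 7.66 CPM in WT OPCs and 52.2, 44.8 and 37.1 in WT SSCs (2.58, SE 0.19, adjusted p = 2.92e-06), and 88.5% of its transcript has a copy in Gm9774.

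Of the regulators, the 6 genes around NRF1 had medians of -0.20 and -0.09 in mutant SSCs, with 3 higher and 3 lower in each. Nfe2l1 itself had 190, 236 and 187 CPM in WT SSCs, 129, 123 and 200 in +/1013 SSCs and 138 and 158 in 1013/1013 SSCs (-0.44, SE 0.23, edgeR adjusted p = 0.375, and -0.46, SE 0.26, adjusted p = 0.359). Ddi2, the protease that activates NRF1, had 21.3, 17.4 and 24.2 CPM in WT, 10.4, 14.9 and 12.2 in +/1013 and 4.71 and 10.4 in 1013/1013 SSCs (-0.75, SE 0.37, and -1.47, SE 0.44). The mutant means of both were below WT, and 1 +/1013 library of Nfe2l1 lay within the WT range. The 14 ubiquitin and shuttle genes had medians of 0.10 and -0.10, with the ubiquitin precursor Rps27a, also a ribosomal protein gene, at 1.37 (SE 0.17, adjusted p = 0.0505) and 1.49 (SE 0.18, adjusted p = 0.0671). Scaled over all 17 libraries, Rps27a had 1.79 to 4.25 CPM in OPCs, 21.5 to 26.3 in WT SSCs and 56.3 to 71.6 in mutant SSCs. Its near-identical copies were not examined, and the part of read counting was not tested. Ubb was also above WT in every mutant SSC library (667 to 996 CPM in WT, 1172 to 1999 CPM in mutants). Bag6, Ubqln4 and Rad23b were below WT in all of them. The 8 antigen presentation genes had medians of -0.10 and -0.02, with the peptide transporter Tap1 at -0.52 and -0.83 and B2m at 0.43 and 0.58. The 12 interferon response genes had medians of 0.50 and 0.30, with 8 higher and 4 lower in +/1013 and 7 higher and 5 lower in 1013/1013 SSCs. Among them were the transcription factor Irf1, at 194, 221 and 226 CPM in WT, 506, 777 and 376 in +/1013 and 253 and 621 in 1013/1013 SSCs (1.37, SE 0.38, adjusted p = 0.165, and 1.03, SE 0.41, adjusted p = 0.252), and Stat2 at -1.37 and -1.18. In OPCs none of the genes of these 5 lists was called in either mutant.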

How the data were processed

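The deposited values are integer counts per gene, which the authors made from SMART-Seq v4 and Nextera XT libraries with STAR (mm10) and HTSeq. Versions, the annotation release and HTSeq's strand setting are not given in the sources used here, so reads of 14 members that share exon sequence with another gene may be split or lost. HTSeq's special counters were left out. Of 55335 identifiers, 181 did not match GENCODE M21. CPM values use TMM factors, within a cell type or over all 17 libraries where stated. Genotypes were compared within a cell type, and cell types over all 17 libraries, by edgeR 4.0.16 (R 4.3.3; filterByExpr, TMM, glmQLFTest with legacy = TRUE) over all genes, and calls needed 1.5-fold and an adjusted p (Benjamini-Hochberg) below 0.05. SE is the log2 fold change over the root of F. DESeq2 1.42.0, other scalings and filters, a replicate block and leaving out each library were alternatives, and scripts were tested on simulated data. Members, lists and the rule for named genes (the catalytic and PA28 subunits, the 3 largest differences each way from 10 CPM, and every call) were chosen with earlier results of these data known; genes of the pathway lists, Psmd2, Psmd9 and others outside it were named after their values were seen. Same-numbered libraries deviated together in every pair (correlation over 0.1) for 1013/1013 against +/1013 OPCs (0.13 to 0.22), 1013/1013 against +/1013 SSCs (0.118 to 0.119) and WT SSCs against WT OPCs (0.13 to 0.38). The block gave 0, 0 and 17 member calls in these comparisons. No sample was left out.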

Additional observations from a re-analysis of the deposited data

How the results depend on the processing

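The constitutive median stayed above 0 in SSCs against WT under every alternative run, and was 0.58 to 0.72 in +/1013 and 0.73 to 0.82 in 1013/1013 when one library was left out. TMM set the median of all genes at -0.11 and -0.23 there, and with at least 10 counts in every library it was 0.0019 and 0.01, with constitutive medians of 0.65 and 0.71. Counts of calls depended on the tool: for +/1013 SSCs DESeq2 called 16 members (7.37% of all genes) and the fit of all libraries 3 (0.716%), for 1013/1013 SSCs 23 (9.67%) and 6 (1.05%), and for the interactions DESeq2 called 6 (2.16%) and 13 (5.64%), where edgeR called none. The cause was not tested. SSC against OPC calls in 1013/1013 were 4 without a filter and 4 with the replicate block, and without the 6 genes with pseudogene copies the constitutive median was 0.0794. The replicate block changed the sign of Psmb8 in +/1013 SSCs (0.17) and of Psmb9 between cell types in +/1013 (-0.0201), and it reversed no other direction and moved no other count of calls by over 1.5 times. Between cell types in +/1013, Psmb7 was -0.0453 with DESeq2, -0.0455 with its size factors and -0.0034 with at least 10 counts in every library, and Psmb9 was -0.0102 with both DESeq2 settings. The ratio of 1013/1013 to +/1013 SSCs was -0.0858 on the log2 scale when counts were divided by gene length.

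Leaving out one library gave these ranges. Calls ran from 0 to 13 in 1013/1013 SSCs, 6 to 22 between cell types in WT, 4 to 9 in 1013/1013 and 0 to 6 for the 1013/1013 interaction. The highest counts that involve 1013/1013 SSCs came without SSC 1013/1013 replicate 2, where 2931, 4036 and 1960 of all genes were called. The constitutive median ran from -0.0208 to 0.084 between mutant SSCs and from 0.12 to 0.34 between cell types in 1013/1013. Psmb8 ran from -0.55 to 0.97 in +/1013 SSCs, -0.75 to 1.45 in 1013/1013 SSCs, -1.36 to 0.86 between cell types in WT and -0.61 to 1.72 in 1013/1013. Psmb9 ran from -0.86 to 0.24 and -0.69 to 1.59 in those SSCs, and between cell types from -1.09 to 0.32 in WT, -0.31 to 0.72 in +/1013 and -0.60 to 1.97 in 1013/1013. Psmb7 between cell types ran from -0.0707 to 0.10 in +/1013 and -0.17 to 0.0483 in 1013/1013. The log2 catalytic ratio changed sign in 8 of 10 comparisons, with ranges of -0.68 to 0.0265, -0.65 to 0.28 and -0.39 to 0.55 in OPCs (+/1013 and 1013/1013 against WT, then between mutants), -0.62 to 0.26, -0.68 to 0.33 and -0.46 to 0.55 in SSCs, and -0.13 to 0.75 and -0.18 to 0.83 between cell types in WT and 1013/1013. Each constitutive subunit had at least 1218 counts in every library, but without molecule tags these do not give the number of molecules sampled. Having 2 libraries of 1013/1013 SSCs limits every test that uses them.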
